A study of Mus musculus with 67 samples.

Results

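*Lepr*, *Leprot* and *Leprotl1* encode the receptor for the hormone leptin and the small membrane proteins endospanin-1 and endospanin-2. They were chosen by name: the leptin receptor, its neighbour on the chromosome and that neighbour's relative. They make up 3 of the 24546 gene features of the second experiment and 3 of the 24421 gene symbols of the pilot experiment.

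Leptin is released by fat cells and acts on neurons of the hypothalamus to restrain food intake, and T cells can also carry its receptor. The receptor belongs to the class I cytokine receptors, binds the kinase JAK2 and activates the transcription factor STAT3, while SOCS3 and the phosphatase PTP1B dampen the signal. Endospanin-1 sits in endosomes and the Golgi apparatus and holds leptin receptor inside the cell, so that less of it reaches the surface, and endospanin-2 is its close relative.

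The study examined CD4 T cells of the hypothalamus in mice on a high-calorie diet and in genetically obese mice, in part by RNA sequencing of sorted cells. Its second experiment has 59 libraries in 16 groups: activated conventional T cells (Tconv; CD4 positive, CD25 and Foxp3GFP negative, CD44 high, CD62L low) and regulatory T cells (Tregs) from the hypothalamus or the rest of the brain. The donors were Foxp3GFP reporter mice, Balb/c females or C57Bl/6J males, on a standard diet (SD) or a high-fat high-sugar (HFHS) diet that began at 6 weeks of age. The pilot experiment has 8 hypothalamic libraries, 1 per condition.

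Each group of the second experiment is 1 combination of cell type, tissue, strain and diet, and each library came from cells of several mice pooled under a label such as 11_15. Libraries of the other cell type or tissue often carry the same label, and fits of cell type and tissue were also made with this label as a block, over the libraries whose label occurs in both groups. The label 67_66, of a hypothalamic activated Tconv library from C57Bl/6J mice on SD, occurs in no other library and may stand for 62_66. It was taken as given, so that library entered no fit with the block. The weeks on diet are not in the labels of that experiment, and strain and sex cannot be told apart in it. Groups held 4 libraries, except for 3 activated Tconv groups of the rest of the brain with 3 (C57Bl/6J on the HFHS diet and Balb/c on either diet) and the Tregs of that tissue from Balb/c mice on SD with 2. In the pilot experiment, female Foxp3GFP Balb/c mice had 16 weeks of HFHS or regular diet, 9 mice to a pool, and gave CD4 T cells, deposited as CD44-negative and naive and described by the study as CD25-negative with low to intermediate CD44, and CD25-positive Foxp3GFP-positive Tregs. The other pilot pools came from 7 female *ob*/*ob* mice, which cannot make leptin, or 7 female C57Bl/6J wild-type (WT) mice, and gave CD4 T cells and CD25hi cells labelled Tregs. The labels of these pools give no diet, and the study's text describes the *ob*/*ob* mice as fed a standard diet.

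Libraries of the second experiment held 1724149 to 38482277 estimated counts on genes. Activated Tconv were sequenced to 13196689 to 20538310 counts in the hypothalamus, with 9020 to 10143 genes over 10 counts, and to 11340063 to 28187008 in the rest of the brain, with 10247 to 11527 genes. Rest-of-brain Tregs had 5438 to 9623 genes over 10 counts. Hypothalamic Tregs had a median of 15027196 counts and only 2108 to 9907 such genes with a median of 4481, the fewest of these sets. Pilot libraries held 99925 to 5334511 counts, and 0.391% to 17.1% of their reads lay on genes. Reads were not tied to single molecules, so every counting interval and floor given here covers counting error only.

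Marker genes were read beside the labels of the second experiment. The summed Treg genes had medians of 1640 CPM (counts scaled to the same library total) in hypothalamic and 2220 CPM in rest-of-brain Tregs, against 112 and 197 CPM in activated Tconv of these tissues, and at most 305 CPM in any activated Tconv library. The 4 measured T-cell genes summed to medians of 4360 to 5370 CPM. Markers or depth set 4 libraries apart. In hypothalamic Tregs, the C57Bl/6J SD library 11_15 had all 5 endothelial genes at a summed 16800 CPM, led by *Ly6c1* at 8850 CPM, and its T-cell genes summed to 107 CPM. The Balb/c SD library 32_36 had 5 of 6 microglial genes at a summed 20500 CPM, beside 2550 CPM of T-cell genes. The C57Bl/6J SD library 43_47 had the lowest total, 1724149 counts. The pilot library labelled WT CD25hi had 0 counts of *Cd3d*, *Cd4* and *Lck*, 17.8 CPM over the 4 T-cell genes and 34500 CPM over all 6 microglial genes, led by *P2ry12* at 18700 CPM. Comparisons of 2 groups with hypothalamic Tregs, and the interaction of cell type and tissue, were repeated without the first 3, and the pilot library has no replicate to replace it.

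In GRCm38.p6, *Leprot* (Entrez 230514, chr4:101647783-101659364) and *Lepr* (Entrez 16847, chr4:101717137-101815352) lie in tandem on the plus strand. They are 57772 bases apart, with 0 RefSeq genes between them and 0 others overlapping either. *Leprotl1* (Entrez 68192, chr8:34135572-34146739, minus strand) has 0 overlapping genes as well. No stretch of 31 bases, the word length that read assignment commonly uses, was shared by GENCODE transcripts of any 2 of the 3 genes: 0 of 7043 for *Lepr*, 0 of 1897 for *Leprot* and 0 of 2849 for *Leprotl1*. Reads of the receptor and of its neighbour can therefore be told apart by sequence. Of the counts on *Lepr*, 432 were assigned to a RefSeq transcript of 5539 bases, 20 to one of 4126 bases and 0 to one of 3407 bases. Their GENCODE matches code for 2682, 3486 and 2676 bases, so the transcript of 4126 bases has the longest coding sequence, that of the long receptor form, and most counts went to a shorter form. Of the 432, 374 came from 1 endothelial-rich library, 11_15, and without it the split was 58 and 20. In activated Tconv of the rest of the brain the shorter form had 52 counts in 9 libraries and the long form 18 in 5. The forms share most of their sequence, and how surely reads were split between them was not tested.

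The windows of 250 bases before the annotated starts also differ. Whether they have a part in the levels of *Lepr* and its neighbour, which were far apart, was not tested. RefSeq windows of GRCm38.p6 were found for 2 of the 3 genes and not for *Leprotl1*. The motif GGGCGG was searched on both strands and is in capitals. The *Leprot* window (chr4:101647533-101647782, plus strand) holds it 6 times. The *Lepr* windows (chr4:101717157-101717406 and chr4:101717656-101717905, plus strand) hold it 0 and 1 times. They precede transcript starts that lie after the first base of the gene given above, so both are inside that span. Among 32851 mouse windows of this length, 32.7% hold the motif, and 0.886% hold it at least 6 times.
Leprot window: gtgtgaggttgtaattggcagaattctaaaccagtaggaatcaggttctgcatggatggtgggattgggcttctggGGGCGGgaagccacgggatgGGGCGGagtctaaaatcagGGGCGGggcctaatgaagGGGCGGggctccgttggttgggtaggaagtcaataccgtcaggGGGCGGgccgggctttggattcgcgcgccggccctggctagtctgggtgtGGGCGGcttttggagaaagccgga
Lepr first window: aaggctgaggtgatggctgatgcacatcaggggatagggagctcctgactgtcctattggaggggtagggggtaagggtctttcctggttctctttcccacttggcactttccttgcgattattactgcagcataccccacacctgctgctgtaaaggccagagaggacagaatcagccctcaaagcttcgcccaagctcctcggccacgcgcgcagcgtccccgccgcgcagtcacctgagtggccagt
Lepr second window: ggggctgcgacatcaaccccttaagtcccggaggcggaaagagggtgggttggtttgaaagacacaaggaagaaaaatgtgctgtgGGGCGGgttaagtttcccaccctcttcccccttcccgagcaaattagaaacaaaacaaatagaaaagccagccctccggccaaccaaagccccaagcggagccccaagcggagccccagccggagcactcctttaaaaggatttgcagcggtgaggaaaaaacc

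*Lepr*, the gene of the receptor itself, was at or near 0 in most libraries of the second experiment. It had more than 3 counts, the floor used here, in 8 of 59. Of the 13 activated Tconv libraries of the rest of the brain, 7 passed that floor, against 0 of 16 in the hypothalamus. Tregs passed it in 0 of 14 libraries of the rest of the brain and in 1 of 16 of the hypothalamus.

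In activated Tconv of the rest of the brain, the 3 Balb/c SD libraries had 6, 6 and 5 *Lepr* counts (0.327, 0.255 and 0.441 CPM). The 3 Balb/c libraries on the HFHS diet had 19, 15 and 0 counts (1.02, 0.821 and 0 CPM). Of the 4 C57Bl/6J SD libraries, 1 had 5 counts (0.262 CPM), 1 had 3 and 2 had 0, and the 3 on the HFHS diet had 10, 1 and 0 counts, the first at 0.445 CPM. The 3 Balb/c SD libraries and 2 of 3 Balb/c HFHS libraries were thus above the floor, against 1 of 4 and 1 of 3 in C57Bl/6J mice, and all groups overlapped. In the hypothalamus, 13 of 16 activated Tconv libraries had 0 counts, and the other 3, all Balb/c on the HFHS diet, had 1, 2 and 2. Per-library floors of 3 counts there were 0.146 to 0.227 CPM.

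Summed over libraries, activated Tconv of the rest of the brain had 70 counts of *Lepr* in 266321939, or 0.263 CPM (exact Poisson 95% interval 0.205 to 0.332). Those of the hypothalamus had 5 in 287044813, or 0.0174 CPM (0.00566 to 0.0406). Tregs of the rest of the brain had 3 in 244080364, or 0.0123 CPM (0.00253 to 0.0359). The first of these sums was 15.1-fold the second (6.17 to 47.9) and 21.4-fold that of Tregs (7.02 to 106). With 1 library left out these folds ranged from 11.8 to 23.5 and from 16.7 to 59.4, the last without Treg library 37_41, which held 2 of the 3 Treg counts. The sums of hypothalamic activated Tconv and of rest-of-brain Tregs did not differ beyond counting error.

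The hypothalamic Treg libraries had 374 counts of *Lepr*, all in the endothelial-rich library 11_15, at 44.5 CPM or 10.5 TPM (a level per transcript length, scaled to the same sum in each library). Without the 3 libraries set apart above, 0 counts were found in 252132402, which allows up to 0.0146 CPM. The endothelial list summed to at most 379 CPM in rest-of-brain Tregs and 259 CPM in activated Tconv of that tissue. Whether other cells gave the receptor reads of library 11_15 was not tested.

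Of the 3 members tested between the cell types in the rest of the brain, edgeR called 1, *Lepr*, with 2 at an unadjusted p under 0.05, where 15% of all genes were called. Its log2 difference, Tregs minus activated Tconv, was -3.77 (SE 0.98, adjusted p = 0.00767). The gene entered this test through its highest 2 libraries, activated Tconv of Balb/c mice on the HFHS diet, 15_21 and 47_25, with 19 and 15 counts. More than 10 counts were needed in 2 libraries, and 0 of 14 Treg libraries had them. The gene was thus tested through the set in which it was higher, so this call and its alternatives add no support to the counts themselves. Without either library it was not tested and 0 members were called, also under edgeR's filterByExpr or with the most abundant name alone. Over the 6 other alternatives that tested it, adjusted p ranged from 0.00582 to 0.0440. In the other comparisons of 2 groups it had too few counts for the filter with all libraries. For tissue in activated Tconv it was tested and called in 7 of the 9 fits that each left out a library of a rest-of-brain group of 3 and so needed only 2 libraries over 10 counts (all but those without 15_21 or 47_25), at -4.44 to -4.00 (hypothalamus minus rest of the brain, adjusted p of 0.000264 to 0.00110), and with a filter of more than 10 counts in total, at -4.17 (SE 0.84, adjusted p = 0.000620), where 37.6% of all genes were called, 5953 of 6993 lower in the hypothalamus. Over 10 counts of it were found in 2 of 13 rest-of-brain and 0 of 16 hypothalamic libraries, so the left-out fits admitted it through the tissue in which it was higher. The filter on the total did so too, with 70 counts in the rest of the brain and 5 in the hypothalamus. None of these fits therefore adds support of its own. With the filter on the total, *Lepr* was 1.95 (SE 1.44, adjusted p = 0.394) for strain and 0.79 (SE 1.42) for diet in rest-of-brain activated Tconv.

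Detection was therefore compared over libraries with Fisher's exact test, two-sided, adjusted over the 4 factors. *Lepr* passed the floor in 24.1% of 29 activated Tconv and 3.33% of 30 Treg libraries (exact p = 0.0257, adjusted p = 0.0514). It passed in 25.9% of 27 rest-of-brain and 3.12% of 32 hypothalamic libraries (exact p = 0.0186, adjusted p = 0.0514). Both missed 0.05 as adjusted, and without the 3 libraries set apart both passed it, at 0.0211 and 0.0153. That choice, made after seeing the data, removes library 11_15, the only Treg and only hypothalamic library over the floor, so it adds no support. At 1 count or more the adjusted p were 0.0296 and 0.0351, and at more than 10 counts the differences were only 3.56 and 4.28 percentage points (adjusted p = 0.816 for each). These tests take libraries as independent, although some share a pool label. By strain it passed in 17.9% of Balb/c and 9.68% of C57Bl/6J libraries, and by diet in 10% on the HFHS diet and 17.2% on SD (exact adjusted p = 0.472 for each).

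Markers of other brain cells were measured in the same libraries. In the 13 activated Tconv libraries of the rest of the brain, the 3 choroid plexus genes summed to 0 to 0.602 CPM, with *Ttr* at 0 in 10 of the 13, and the 4 mural and fibroblast genes to 0.0355 to 8.72 CPM. The 5 neuronal genes summed to 0.0803 to 95 CPM with a median of 0.923, and the 5 astrocyte genes to 0.151 to 21.2 CPM with a median of 3.09. The neuronal sum was 6.09 CPM in library 15_21 and 2.19 CPM in library 47_25, the libraries with most *Lepr*. It was 95 CPM in the Balb/c SD library 42_46, which had 5 counts of *Lepr* and 667 CPM of microglial genes. Endothelial genes summed to 72.3 to 259 CPM, mostly *Ly6c1* and *Pecam1*, with *Cldn5* at 0 in 9 of the 13. In hypothalamic activated Tconv, with almost no *Lepr*, the neuronal and astrocyte medians were lower, at 0.104 and 0.363 CPM, and in rest-of-brain Tregs they were 0.117 and 12.2 CPM. The mural and fibroblast median was 0.441 CPM in activated Tconv of the rest of the brain and 0 in those of the hypothalamus and in rest-of-brain Tregs, where it reached at most 2.66 and 0.19 CPM. The choroid plexus median was 0.17 CPM in the first set and 0 in the other sets named, at most 0.065 and 0.191 CPM. The 2 CD8 T-cell genes had medians of 276 CPM in rest-of-brain activated Tconv and 21.6 CPM in Tregs of that tissue, and of 218 and 0.0688 CPM in the hypothalamus. The study's flow cytometry gate for CD4 T cells excluded cells with CD8a or CD11b, among other markers. The part of any of the cells named here in the receptor counts was not tested.

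*Lep*, the ligand, had more than 3 counts in 5 of 13 activated Tconv libraries of the rest of the brain, 1 of 14 Treg libraries of that tissue and 0 of 32 hypothalamic libraries. Its highest level was 0.354 TPM. The receptor's own level per length in activated Tconv of the rest of the brain, a median of 0.0461 TPM and at most 0.189, was near that of the prolactin receptor *Prlr* (0.093 TPM). It was far under that of *Il7r*, the interleukin 7 receptor, at 281 TPM.

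**Figure D1:**
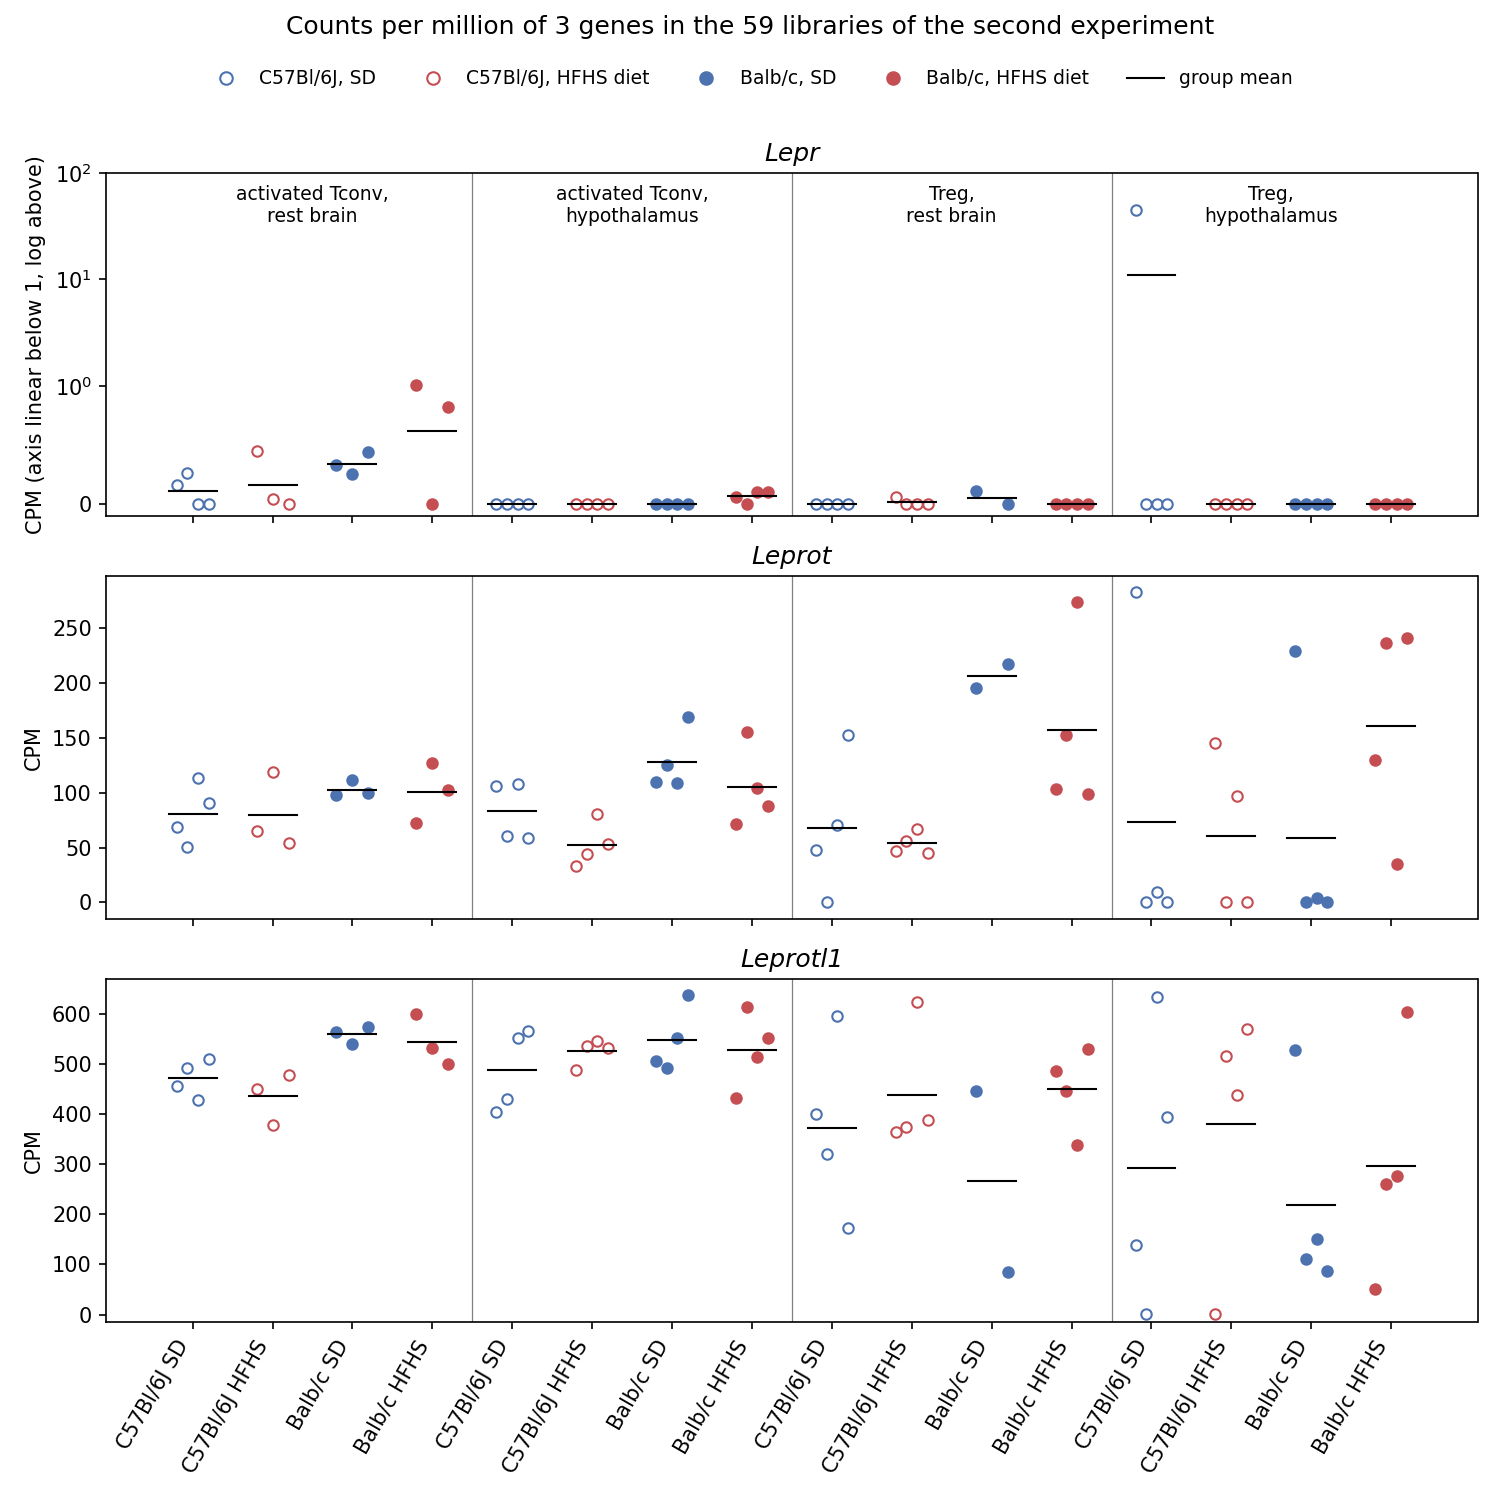
Scaled counts of *Lepr*, *Leprot* and *Leprotl1* (y axes, CPM; the *Lepr* axis is linear below 1 and logarithmic above) in each of the 59 libraries of the second experiment, by cell type, tissue, strain and diet (x axis); points are libraries and lines are group means. *Lepr* lies at or near 0 except for 1 hypothalamic Treg library at 44.5 CPM, and Treg values of the other genes spread more widely than those of activated Tconv.

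*Leprot*, whose product retains the receptor inside the cell, was measured in far more libraries than its neighbour. It had at least 1 count in 54 of 59 libraries and more than 3 in 52, and the 5 libraries at 0 were all hypothalamic Tregs. Activated Tconv had 33.6 to 169 CPM in all 29 libraries. Medians were 67.6 TPM in rest-of-brain Tregs, 67 in hypothalamic activated Tconv, 56.8 in rest-of-brain activated Tconv and 15.4 in hypothalamic Tregs. No neighbours in this order differed beyond the spread of their libraries.

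In activated Tconv of the hypothalamus, *Leprot* had 59, 60.5, 106 and 108 CPM in C57Bl/6J mice on SD and 33.6, 43.9, 53.0 and 80.4 CPM on the HFHS diet. Balb/c mice had 108.5, 109, 125 and 169 CPM on SD and 71.4, 88.2, 104.5 and 155 CPM on the HFHS diet. On SD all Balb/c libraries lay above the C57Bl/6J ones, the nearest by less than 1 CPM, and on the HFHS diet the strains overlapped. In TPM they overlapped on SD as well, with 96.9 in C57Bl/6J library 11_15 against 78.5, 84.9, 90.2 and 124 in Balb/c mice. The log2 difference, Balb/c minus C57Bl/6J, was 0.80 (SE 0.22), with an unadjusted p of 0.00199 and an adjusted p of 0.0771 by edgeR. DESeq2 and limma-voom gave adjusted p of 0.0128 and 0.0418, and alternatives in all ranged from 0.0128 to 0.926. Without the C57Bl/6J SD library 67_66 edgeR's adjusted p was 0.0497.

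Between the strains in this tissue edgeR called 2.10% of all genes and 0 of the 2 members tested, with 1 at an unadjusted p under 0.05. DESeq2 and limma-voom each called 1 member, beside 5% and 2.78% of all genes. On the TPM scale the mean of *Leprot* was 84.5 in Balb/c (SD 24.9, n = 8) and 51.0 in C57Bl/6J (SD 24.1, n = 8), the same direction as in CPM.

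In the rest of the brain, activated Tconv had 50.3, 68.3, 90.9 and 114 CPM of *Leprot* in C57Bl/6J mice on SD and 54.4, 65.5 and 118 CPM on the HFHS diet. Balb/c mice had 97.4, 99.6 and 111 CPM on SD and 72.2, 103 and 127 CPM on the HFHS diet. The strains overlapped on the HFHS diet and on SD. The fitted strain difference was 0.61 on the log2 scale (SE 0.24, edgeR adjusted p = 0.0697; DESeq2 0.0344, limma-voom 0.0350, and 0.0344 to 0.382 over the alternatives), but on the TPM scale the direction turned, with means of 57.1 in Balb/c and 59 in C57Bl/6J. Leaving out C57Bl/6J library 38_42 or 62_66 gave edgeR adjusted p of 0.0321 and 0.0317.

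Hypothalamic Tregs varied widely in *Leprot*. C57Bl/6J libraries had 0, 0, 9.16 and 283 CPM on SD and 0, 0.134, 96.4 and 145 CPM on the HFHS diet. Balb/c libraries had 0, 0, 4.13 and 229 CPM on SD and 35.4, 129.5, 236 and 241 CPM on the HFHS diet. In each SD group 1 library stood far above the rest, and all groups overlapped. The value of 283 CPM belongs to the endothelial-rich library 11_15, and 2 of the zeros to libraries 43_47 and 32_36.

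Rest-of-brain Tregs had 0.180, 48.1, 70.6 and 153 CPM of *Leprot* in C57Bl/6J mice on SD and 44.8, 46.8, 56.4 and 66.9 CPM on the HFHS diet. Balb/c mice had 195 and 217 CPM on SD and 99.0, 103, 152 and 274 CPM on the HFHS diet. On each diet the Balb/c libraries lay above those of C57Bl/6J mice. The strain difference was 1.53 on the log2 scale (SE 0.72), with an adjusted p of 0.567 by edgeR, which called 0.299% of all genes here and 0 of the 2 members tested, 0 at an unadjusted p under 0.05. DESeq2 and limma-voom also called 0, each with 1 at an unadjusted p under 0.05, beside 2.56% and 1.05% of all genes.

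*Leprotl1*, encoding endospanin-2, was found in all 59 libraries, in 58 with more than 3 counts. Medians were 258 TPM in activated Tconv of the hypothalamus, 220 in those of the rest of the brain, 205 in rest-of-brain Tregs and 130 in hypothalamic Tregs. Neighbours in this order overlapped. Within groups of activated Tconv its log2(CPM + 1) had a hypothalamic SD of 0.187 and one of 0.125 in the rest of the brain, against 0.449 and 0.445 for *Leprot*. In hypothalamic Tregs these SDs were 2.98 and 3.38. Fewer cells of a type and less RNA per cell cannot be told apart in these pooled sorts.

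In activated Tconv of the rest of the brain, *Leprotl1* had 427, 457, 493 and 510 CPM in C57Bl/6J mice on SD and 378, 450 and 479 CPM on the HFHS diet. Balb/c mice had 540, 563 and 574 CPM on SD and 501, 532 and 601 CPM on the HFHS diet. Balb/c libraries lay above C57Bl/6J libraries within each diet, and over both diets only the lowest Balb/c value, 501 CPM, was under the highest of C57Bl/6J. The fitted log2 difference was 0.55 (SE 0.12, edgeR adjusted p = 0.00232), and 0.47 to 0.58 with any 1 library left out, but the TPM means turned, at 212 in Balb/c (SD 26.7) and 227 in C57Bl/6J (SD 25.2). On SD alone it was 0.35 with an adjusted p of 0.111, and adjusted p ranged from 4.45e-06 to 0.111 over the alternatives.

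This was 1 of the 2 members tested, in a comparison that called 23.5% of all genes, and DESeq2 and limma-voom called 2, beside 30.4% and 27.4% of all genes. The endothelial list, led by *Ly6c1* or *Pecam1*, summed to 72.3 to 147 CPM in these C57Bl/6J libraries and 119 to 259 CPM in the Balb/c ones. *Cldn5*, also on that list, had no counts in most rest-of-brain activated Tconv libraries, as given above. Whether this sum reflects endothelial cells was not tested, nor was its part in the difference. In the hypothalamus *Leprotl1* ranged from 404 to 566 CPM in C57Bl/6J mice (median 534, n = 8) and from 432 to 637 in Balb/c mice (median 532, n = 8), with broad overlap. The strain difference there was 0.07 (SE 0.11, edgeR adjusted p = 0.972). Whether the strain effect differed between tissues was not tested.

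Hypothalamic Tregs had 1.16, 138.5, 394 and 635 CPM of *Leprotl1* in C57Bl/6J mice on SD and 0.429, 437, 516 and 570 CPM on the HFHS diet. Balb/c mice had 86.4, 110, 150 and 528 CPM on SD and 50.2, 260, 276 and 603 CPM on the HFHS diet. All groups overlapped. Rest-of-brain Tregs ranged from 172 to 623 CPM in C57Bl/6J mice (median 381, n = 8) and from 85.2 to 531 in Balb/c mice (median 446, n = 6), also with overlap. In hypothalamic Tregs, the C57Bl/6J HFHS library 06_10 had 5 counts of *Leprotl1* and 1686 of *Leprot*, while library 77_80 of the same group had 10052 and 0. For the strains in hypothalamic Tregs, edgeR called 0.0389% of all genes and 0 of the 2 members tested, with 0 at an unadjusted p under 0.05. DESeq2 and limma-voom called 0 members, beside 3.24% and 0.169% of all genes. The differences, Balb/c minus C57Bl/6J on the log2 scale, were 0.23 (SE 2.04) for *Leprot* and -0.51 (SE 1.06) for *Leprotl1*, and 1.91 (SE 2.45) and -0.70 (SE 1.01) without the 3 libraries set apart.

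Per length, *Leprot* lay under *Leprotl1* in activated Tconv. The log2 ratio of TPM + 1 averaged -2.04 in the hypothalamus (SD 0.605, n = 16), from -3.25 to -1.35, and -1.94 in the rest of the brain (SD 0.473, n = 13), from -2.70 to -1.11. All 16 and all 13 libraries had less *Leprot*, with two-sided sign-flip permutation p of 3.05e-05 and 0.000244, the smallest these can give, or 0.000122 and 0.000488 adjusted over the 4 groups.

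In Tregs the ratio spread more. It averaged -1.74 in the rest of the brain (SD 2.05, lower in 11 of 14 libraries, permutation p = 0.00439, adjusted p = 0.00586) and -2.52 in the hypothalamus (SD 4.06, lower in 12 of 16, permutation p = 0.0275). Without the 3 libraries set apart the hypothalamic mean was -2.73 (10 of 13, permutation p = 0.0413). Leaving out C57Bl/6J SD library 67_71, or HFHS library 77_80 or 33_37, gave permutation p of 0.0533, 0.0538 and 0.0538.

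**Figure D2:**
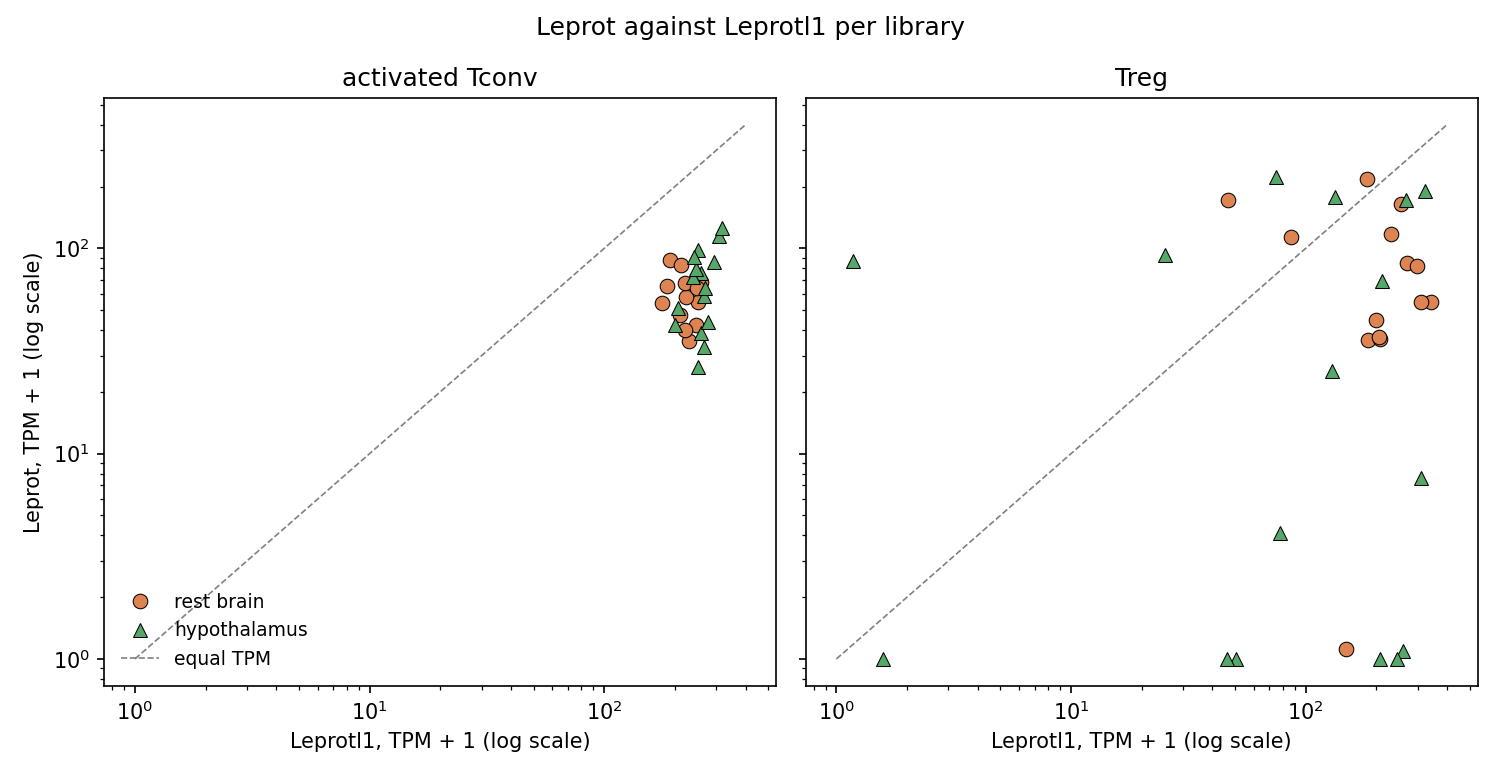
*Leprot* (y axis) against *Leprotl1* (x axis), both as TPM + 1 on log scales, for activated Tconv and for Tregs; each point is 1 library, circles are the rest of the brain, triangles the hypothalamus, and the dashed line marks equal levels. All 29 activated Tconv libraries lie below the line, and Treg libraries scatter on both sides of it.

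The HFHS diet was compared with SD in each cell type and tissue with a strain term. Of all genes, edgeR called 0.0% in each of the 4 comparisons, with 406, 591, 214 and 853 genes at an unadjusted p under 0.05 in activated Tconv of the hypothalamus and rest of the brain and in Tregs of the same tissues. DESeq2 called 16, 12, 180 and 327 genes and limma-voom 0, 1, 4 and 16. Of the 2 members tested in each, edgeR, DESeq2 and limma-voom called 0, and at an unadjusted p under 0.05 the counts were 0, except for 1 by limma-voom in hypothalamic activated Tconv.

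The *Leprot* difference in hypothalamic activated Tconv, HFHS diet minus SD, was -0.44 on the log2 scale (SE 0.22, unadjusted p = 0.0596, edgeR adjusted p = 1). In rest-of-brain activated Tconv it was 0.06 (SE 0.24). *Leprotl1* differed by 0.05 (SE 0.11) and -0.01 (SE 0.12) in these tissues. In hypothalamic Tregs the differences were 0.52 (SE 2.05) for *Leprot* and 0.21 (SE 1.06) for *Leprotl1*, or 1.96 (SE 2.58) and -0.22 (SE 1.03) without the 3 libraries set apart. In rest-of-brain Tregs they were -0.39 (SE 0.72) and 0.41 (SE 0.34). With such errors a doubling of either could not have been resolved in hypothalamic Tregs.

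The interaction of strain and diet called 0.0%, 0.610%, 0.0% and 0.0% of genes in these 4 sets by edgeR and 0 of the 2 members in each. The lowest unadjusted p of a member was 0.0294, for *Leprotl1* in rest-of-brain activated Tconv (0.44, SE 0.18, edgeR adjusted p = 0.302), which was 1 at an unadjusted p under 0.05.

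Between the cell types, *Leprot* differed by 0.05 (SE 0.96, edgeR adjusted p = 0.998) in the hypothalamus and 0.02 (SE 0.40, adjusted p = 0.991) in the rest of the brain, Tregs minus activated Tconv on the log2 scale. *Leprotl1* differed by -0.81 (SE 0.49, edgeR adjusted p = 0.476) and -0.46 (SE 0.20, adjusted p = 0.132). In the hypothalamus edgeR called 7.73% of all genes and 0 of the 2 members tested, 0 at an unadjusted p under 0.05, and DESeq2 called 0. Limma-voom with quality weights, which called 65% of all genes there against 14.2% by DESeq2, called both, at -3.59 for *Leprot* (adjusted p = 0.00291) and -1.63 for *Leprotl1* (0.00753), against 0.00291 to 1 and 0.00753 to 0.584 over all alternatives. Without the 3 libraries set apart, edgeR gave -0.32 and -0.54. With the pool as a block, it gave -2.85 (SE 2.19, adjusted p = 0.280) and -1.62 (SE 0.69, adjusted p = 0.0539) and called 48.2% of all genes. In the rest of the brain limma-voom, which called 25% of all genes, called *Leprotl1* beside *Lepr*, at -0.43 (adjusted p = 0.0356, against 0.0356 to 0.368 over the alternatives). DESeq2, which called 17.7% of all genes there, called *Lepr* alone.

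Between the tissues, hypothalamus minus rest of the brain, *Leprot* differed by -0.16 (SE 0.17) in activated Tconv and -0.18 (SE 1.07) in Tregs, and *Leprotl1* by -0.04 (SE 0.09) and -0.33 (SE 0.56). By edgeR, 16.9% and 4.93% of all genes were called, and 0 of the 2 members tested in either cell type, with 0 at an unadjusted p under 0.05. DESeq2 also called 0 members, beside 19.6% and 9.5% of all genes. Limma-voom called 0 in activated Tconv, beside 23.8% of all genes. In Tregs it called 1, *Leprot* at -3.02 (adjusted p = 0.0308, against 0.0308 to 1 over the alternatives), beside 37.5% of all genes, 4719 of 4728 of them lower in the hypothalamus. With the pool as a block, edgeR called 0.252% of all genes in activated Tconv and 0.0% in Tregs, against 13.2% and 0.0579% in the same libraries without the block. Members called stayed at 0, with *Leprot* at 0.08 (SE 0.21) in activated Tconv and -4.63 (SE 2.61, adjusted p = 0.321) in Tregs. The interaction of cell type and tissue called 13.0% of genes and 1 of 3 members, *Lepr* at 10.82 (SE 2.34, edgeR adjusted p = 0.000519). It was 2.33 (SE 2.90, adjusted p = 0.896) without the 3 libraries set apart. The fit of this interaction had no block, and *Lepr* entered it through 3 libraries over 10 counts, 2 of rest-of-brain activated Tconv and the endothelial-rich Treg library.

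The pilot experiment put the question of diet to 1 library per condition, so the spread between replicates is unknown. In CD4 T cells of Balb/c mice, *Lepr* had 152 counts on SD (45.8 CPM, exact Poisson 95% interval 38.8 to 53.7) and 0 on the HFHS diet, where 3 counts make 1.38 CPM. With the HFHS library set at that floor, the level was 29.7-fold lower on the HFHS diet. This fold leaves out counting error, since the exact Poisson limit for 0 counts is 3.69. *Leprot* had 150 and 191 counts (45.2 and 87.9 CPM), a fold of 2.17 (1.74 to 2.70), and *Leprotl1* 1302 and 342 (393 and 157 CPM), a fold of 0.448 (0.396 to 0.505). The receptor and *Leprotl1* thus fell below the lower limit of 0.5-fold, as did 37% of genes, and *Leprot* passed the upper limit of 2-fold, as did 24.8%. On CPM alone the *Leprot* fold was 1.94, under that limit.

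The SD library also held the only *Lep* reads of the pilot experiment, 15 counts or 4.52 CPM. Its 4 T-cell genes summed to 4270 CPM, its 5 endothelial genes to 117 CPM (*Pecam1* at 107, *Cldn5* and *Slco1a4* at 0), its 5 astrocyte genes to 54.0 CPM (*Gja1* at 34.1, *Aqp4* at 0), and its 3 choroid plexus genes to 4.83 CPM, all *Kl*, with *Ttr* at 0. Its neuronal genes summed to 4.52 CPM. In the HFHS library the same lists summed to 10600, 63.9, 6.44, 0 and 0 CPM. Oligodendrocyte genes, led by *Mbp*, summed to 274 CPM on SD and 67.6 CPM on the HFHS diet, and mural and fibroblast genes to 8.75 and 0 CPM. Their part in the receptor counts was not tested.

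In Tregs of the same diets, *Lepr* had 12 counts on SD (9.72 CPM, 5.02 to 17.0) and 0 on the HFHS diet. With the HFHS library set at the floor of 3 counts it was 4.81-fold lower, again without counting error. At 8.26 normalized reads on SD it was under the minimum of 20 for a call. *Leprot* had 4 counts on SD (3.24 CPM) and 527 on the HFHS diet (260 CPM), a fold of 110 (42.6 to 404), and *Leprotl1* 65 (52.7 CPM) and 675 (333 CPM), a fold of 8.64 (6.70 to 11.3). Both endospanin genes were thus over 2-fold higher on the HFHS diet, in a pair of libraries where 48.2% of genes were and where 32.3% were under 0.5-fold. The SD Treg library had 339 CPM of neuronal and 730 CPM of astrocyte genes, led by *Nefl* and *Aqp4*, against 0 and 34.0 CPM in the HFHS library.

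In CD4 T cells, *ob*/*ob* mice had 14 counts of *Lepr* (8.10 CPM, 4.43 to 13.6), 122 of *Leprot* (70.6 CPM) and 345 of *Leprotl1* (200 CPM). WT mice had 0, 0 and 5 counts in a library of 220336, where 3 counts make 13.6 CPM. The *Lepr* level of *ob*/*ob* cells was 0.599 times the WT floor as scaled here, and 1.15 and 1.23 times that floor with size factors of the pair and with TMM, so whether the receptor differed cannot be told. *Leprot* of *ob*/*ob* cells was 5.22-fold that floor, without counting error, and *Leprotl1* was 8.85-fold (3.76 to 27.4) higher in *ob*/*ob* mice. In this pair 57.3% of genes were over 2-fold higher and 28.5% under 0.5-fold. With size factors of the pair and with TMM, *Leprot* was 10-fold and 10.7-fold that floor. *Leprotl1* was 17-fold (7.2 to 52.6) and 18.2-fold (7.71 to 56.3) higher with these. The marker lists also differed between these libraries. In *ob*/*ob* and WT cells, Treg genes summed to 362 and 1430 CPM, endothelial genes to 273 and 36.3 CPM, oligodendrocyte genes to 167 and 0 CPM and astrocyte genes to 23.7 and 0 CPM.

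In CD25hi cells, *ob*/*ob* mice had 0 counts of *Lepr*, 8 of *Leprot* (80.1 CPM) and 6 of *Leprotl1* (60 CPM) in a library of 99925 counts, whose floor is 30 CPM. The library labelled WT had 0, 730 (137 CPM) and 211 (39.6 CPM), but lacked T-cell genes as described above. In *ob*/*ob* and WT libraries, astrocyte genes summed to 1660 and 2040 CPM, led by *Gja1* in both, endothelial genes to 440 and 0 CPM, mural and fibroblast genes to 210 and 56.2 CPM and oligodendrocyte genes to 0 and 579 CPM. The folds were 0.171 (0.0736 to 0.339) for *Leprot* and 0.444 (0.161 to 0.983) for *Leprotl1*, both under 0.5 as were 54.8% of genes, while 24.8% were over 2-fold higher. Scaled by totals alone they were 0.585 and 1.52, so the direction of *Leprotl1* turned.

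**Figure D3:**
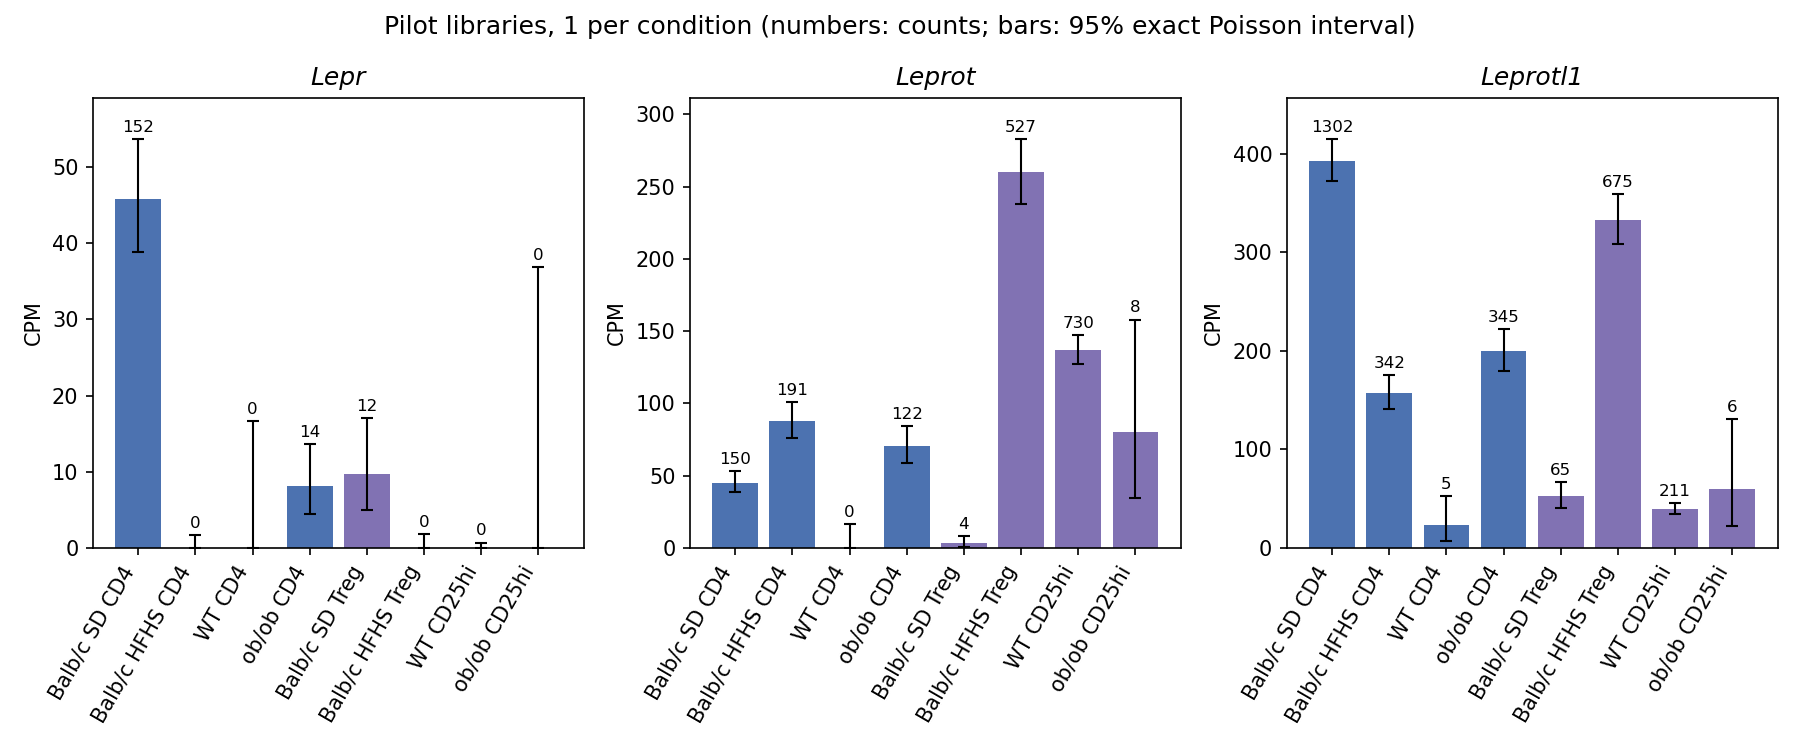
Scaled counts in CPM (y axes, linear from 0) of *Lepr*, *Leprot* and *Leprotl1* in the 8 pilot libraries (x axis), 1 per condition; numbers are counts and bars are exact Poisson 95% intervals. *Lepr* has 152 counts in CD4 T cells of Balb/c mice on SD and 0 in 5 libraries, of which the *ob*/*ob* CD25hi library has the widest interval.

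Genes that act with the receptor were followed from 3 lists. Of 21 genes of leptin signalling, 20 were tested between the strains in activated Tconv of the rest of the brain, and edgeR called 1 higher and 6 lower in Balb/c, where 23.5% of all genes were called, with a median log2 difference of -0.50 against -0.03 over all genes. *Stat3*, the main transducer of the receptor, was at -1.59 (SE 0.23, edgeR adjusted p = 0.000102), *Ptpn1*, encoding PTP1B, at -0.96, the feedback inhibitor *Socs3* at -1.55 and the JAK2 adaptor *Sh2b1* at -1.03. In activated Tconv between tissues, 6 of 20 were higher and 1 lower in the hypothalamus in the fit without a block, which called 16.9% of all genes (median 0.32 against -0.09), with *Stat3* at 0.79, *Socs3* at 0.98 and *Irs1*, an insulin receptor substrate, at -3.89. With the pool as a block, which called 0.252% of all genes, 1 of 20 was called, *Ptpn1* at 0.90 (adjusted p = 0.0495), and adjusted p was 0.0609 for *Stat3*, 0.194 for *Socs3* and 0.120 for *Irs1*. Between the cell types in the rest of the brain, 3 of 21 were higher and 2 lower in Tregs, where 15% of all genes were called (median 0.12 against -0.26), with *Ptpn1* at 1.21, *Stat3* at 0.97 and *Irs1* at -4.28. With the block 4 were called, beside 12.2% of all genes, and *Stat3* had an adjusted p of 0.143. *Irs1* had over 10 counts in 3 of 13 activated Tconv libraries of the rest of the brain and in 0 libraries of each other set, so like *Lepr* it entered these tests through the set in which it was higher.

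Of 12 other class I receptors, 8 were tested between the strains in rest-of-brain activated Tconv, 1 was higher in Balb/c (*Il7r*, 0.73) and 2 were lower (*Il12rb1*, an interleukin 12 receptor chain, -3.61, and the interleukin 27 receptor *Il27ra*, -0.81). Their median was -0.11, against -0.03 over all genes, of which 23.5% were called. Between tissues in activated Tconv, 2 of 8 were higher and 2 lower in the hypothalamus (median -0.37), with *Il12rb1* at 1.79, *Il27ra* at 0.61 and *Il7r* at -0.49, beside 16.9% of all genes. The other lower gene had over 10 counts in 4 of 13 rest-of-brain and 0 of 16 hypothalamic libraries, so it was tested through the set in which it was higher. With the pool as a block 0 of 8 were called, beside 0.252% of all genes, with adjusted p of 0.0672, 0.0761 and 0.0837 for those named. Tregs of the rest of the brain had less *Il12rb2* (-8.38, SE 1.95) and *Prlr* (-4.95, SE 1.08, edgeR adjusted p = 0.00207) than activated Tconv, 2 of 9 tested beside 15% of all genes, and in the hypothalamus *Il12rb2* was 1 of 6, at -5.66, beside 7.73% of all genes. *Il12rb2* had over 10 counts in 11 of 13 activated Tconv and 1 of 14 Treg libraries of the rest of the brain, and in 15 of 16 and 2 of 16 of the hypothalamus, so it passed the filter through activated Tconv. *Prlr* had over 10 counts in 6 of 13 activated Tconv libraries of the rest of the brain and in 0 of 14 Treg libraries of that tissue, so it too was tested through the set in which it was higher.

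Of 12 genes of endosomal sorting, the route on which endospanins act, 3 were higher and 3 lower in Balb/c in rest-of-brain activated Tconv, where 23.5% of all genes were called (median -0.32 against -0.03). The late endosome GTPase *Rab7* was at -1.07 (SE 0.17, edgeR adjusted p = 0.000168), *Hgs* at -1.91 and *Vps4a* at -0.82, while the recycling GTPase *Rab11a* and the retromer subunit *Vps29* were higher by 0.76 and 0.98. Between tissues in activated Tconv 1 was higher in the hypothalamus, *Rab7* at 0.50, and 1 lower, *Rab11a* at -0.44, beside 16.9% of all genes, and with the pool as a block 0 of 12 were called, beside 0.252% of all genes (adjusted p of 0.131 and 0.211). In the other 8 comparisons, all 4 of diet among them, edgeR called 0 genes of the 3 lists, with 0 to 5 genes of a list at an unadjusted p under 0.05. The largest counts were both in hypothalamic activated Tconv. For diet it was 5 of 19 genes of leptin signalling (median -0.25 against -0.008), where 406 of 10877 genes were under 0.05. For strain it was 4 of 6 class I receptors, where 1078 of 10877 genes were. For strain in hypothalamic activated Tconv, DESeq2 called 1 of 19 genes of leptin signalling, 4 of 6 class I receptors and 0 of 12 sorting genes, beside 5% of all genes. For diet in hypothalamic Tregs it called 1 of 19, 1 of 5 and 1 of 11, beside 2.33%. For tissue in Tregs it called 1 of 19, 2 of 9 and 1 of 12, beside 9.5%. Limma-voom called 0, 1 and 0 in the first of these, beside 2.78% of all genes, 0, 0 and 0 in the second and 9, 4 and 6 for tissue in Tregs, where it called 37.5% of all genes, and both called 0 in the other 5 comparisons. Between the cell types in the hypothalamus, where edgeR called 0, 1 and 0, limma-voom called 13 of 19, 5 of 6 and 9 of 12, beside 65% of all genes, DESeq2 1, 2 and 0, and edgeR with the pool as a block 3, 3 and 2, beside 48.2% of all genes. Between them in the rest of the brain the 3 tools called 5, 11 and 7 genes of leptin signalling in the order edgeR, DESeq2 and limma-voom, beside 15%, 17.7% and 25% of all genes. In the same order they called 2, 3 and 4 class I receptors and 0, 1 and 1 sorting genes.

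Over the 59 libraries and 9000 genes compared, the genes whose log2 levels followed *Leprot* most closely were *Oxr1* (Pearson r = 0.846), *Dipk1a* (0.819) and *Rnft1* (0.804). Those nearest to *Leprotl1* were *Chmp2a* (0.872), *Sdhb* (0.862) and *Hmgb1* (0.850). These are descriptions over libraries that share depth and complexity differences between cell types. *Lepr* had too few counts for such a comparison.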

How the data were processed

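RNA of sorted cells was sequenced. For the pilot experiment the authors deposited counts per gene, made with BWA-mem and HTSeq on mm10 per the submitters' notes. For the second experiment the authors deposited Salmon output, with estimated counts (NumReads) and TPM per transcript name, from nf-core/rnaseq on mm10. Of 35034 names, 34652 (98.9%) were matched to a gene, and counts were summed over names to 24546 features, rounded for the fits. CPM uses the total on genes. In the pilot experiment 0.391% to 17.1% of reads lay on genes.

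A gene was tested if the number of libraries with over 10 counts of it reached the size of the smallest group. Fits used edgeR 4.0.16 (TMM, quasi-likelihood) in R 4.3.3, with strain and diet as terms, and Benjamini-Hochberg adjustment over all genes tested, called at 0.05. Alternatives were DESeq2 1.42.0 size factors and Wald test, limma 3.58.1 voom with quality weights, filterByExpr, more than 10 counts in total, the most abundant name only, single strains or diets, pools as blocks and each library left out. Leaving out the 3 libraries that stand apart was chosen after seeing the data. *Lepr* detection used Fisher's exact test with a floor of 3 counts, and the *Leprot* to *Leprotl1* ratio permutations of signs. Pilot folds used size factors over the 786 genes with counts in all 8 libraries, with exact 95% Clopper-Pearson intervals, limits of 2 and 0.5 and a minimum of 20 normalized reads. A library with 0 counts was set at the floor of 3 counts, and such a fold has no interval. Python 3.11.15, numpy 2.4.6, pandas 2.3.3, scipy 1.17.1 and matplotlib 3.10.9 were used. The fits were tested on simulated data.

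The named genes were the 3 members, *Lep*, and at most 5 of each list, those called in most of the 12 comparisons, and not every one is named in each comparison. For each member with more than 10 counts in at least 30 libraries, the 3 most correlated genes were also named. Members and lists were chosen with earlier results of these data known.

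Coding lengths of the RefSeq names of the members were summed from the coding parts of the GENCODE vM21 transcripts listed as their matches, without regard to the RefSeq version number.

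The study pooled cells of 5 mice for a library of activated Tconv, and most pool labels span 5 numbers, so libraries of a strain and diet with the same label may come from the same mice. The deposited labels do not say so. Results of the fits with this block are therefore printed where they change a call or move a count of calls by over 1.5 times.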

Additional observations from a re-analysis of the deposited data

Results flagged for a closer look

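In 26 sets of values, each of 1 of the 3 genes in 1 group of 4 libraries, 5 had a value far from the other 3, where chance gives about 1 in 20 sets. Sets of different genes share libraries, and not all such sets were looked at. In hypothalamic Tregs of C57Bl/6J mice on SD, library 11_15, whose endothelial genes summed to 16800 CPM, had 44.46 CPM of *Lepr* against 0, 0 and 0. With the other 3 at 0, this flag was fixed by the high library and cannot be set against the rate by chance. The same library had 282.9 CPM of *Leprot*, against 0, 0 and 9.16. In hypothalamic Tregs of Balb/c mice on SD, library 06_10 had 228.8 CPM of *Leprot* against 0, 0 and 4.13, and 527.6 CPM of *Leprotl1* against 86.4, 110 and 150. In C57Bl/6J HFHS Tregs of the rest of the brain, library 38_42 had 623.3 CPM of *Leprotl1* against 364, 374 and 388.

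The interaction of cell type and tissue was 10.82 for *Lepr* on the log2 scale (edgeR adjusted p = 0.000519), 1 of 11 interaction terms looked at for a member. The gene passed the count filter through 2 activated Tconv libraries of the rest of the brain and library 11_15, and the 374 counts of the latter are all those of hypothalamic Tregs. Without the 3 libraries that stand apart it was 2.33 (adjusted p = 0.896).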

How the results depend on the processing

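With other tools, members called moved from 0 to 1 for strain in hypothalamic activated Tconv (DESeq2 and limma-voom) and from 1 to 2 in the rest of the brain (both), and limma-voom gave 2 for cell type in each tissue and 1 for tissue in Tregs. Members called fell to 0 for strain in rest-of-brain activated Tconv on SD alone, and for cell type in the rest of the brain with filterByExpr or the most abundant name, and were 1, *Lepr*, for tissue in activated Tconv with more than 10 counts in total. With 1 library left out, they ranged from 0 to 1 for cell type in the rest of the brain, for strain in hypothalamic activated Tconv and for tissue in activated Tconv, and from 1 to 2 for strain in the rest of the brain. *Lepr* was not tested in some settings because of its few counts; the other causes were not tested.

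Differences of *Lepr* detection in percentage points became 31.4 for cell type and 28.2 for tissue at 1 count or more, 3.56 and 4.28 at more than 10 counts, and 24.1 and 25.9 without the 3 libraries that stand apart. That of diet turned to 2.53 at 1 count or more and 3.22 at more than 10 counts; the cause was not tested.

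Log2 differences turned within a strain or diet. For diet, *Leprotl1* was -0.019 in Balb/c hypothalamic and 0.17 in Balb/c rest-of-brain activated Tconv, and *Leprot* -0.074 in C57Bl/6J rest-of-brain activated Tconv and -0.41 in C57Bl/6J hypothalamic Tregs. For strain, *Leprotl1* was -0.017 in hypothalamic activated Tconv and 0.019 in rest-of-brain Tregs on the HFHS diet, and *Leprot* -0.71 in hypothalamic Tregs on SD. With limma-voom *Leprotl1* was 0.019 for diet in rest-of-brain activated Tconv, and *Leprot* -3.59 for cell type in the hypothalamus. That value was -0.0060 with the most abundant name and -0.32 without the 3 libraries, and *Leprot* was -0.020 for cell type in the rest of the brain with filterByExpr. *Leprotl1* was -0.22 for diet in hypothalamic Tregs without the 3 libraries. The cause was not tested.

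With 1 library left out, *Leprot* ranged from -0.71 to 0.15 and -0.18 to 0.14 for cell type in the hypothalamus and rest of the brain, and from -1.01 to 0.0071 for tissue in Tregs. It ranged from -0.63 to 0.038 and -0.12 to 0.19 for diet in rest-of-brain Tregs and activated Tconv, and from -1.24 to 2.52 for strain in hypothalamic Tregs. *Leprotl1* ranged from -0.0054 to 0.10 and -0.044 to 0.052 for diet in hypothalamic and rest-of-brain activated Tconv, and from -0.47 to 0.067 for strain in rest-of-brain Tregs. The ratio in hypothalamic Tregs ranged from -3.1 to -2.16. The cause was not tested.

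With the pool number as replicate block, *Leprot* turned to -2.85 and -0.23 for cell type in the hypothalamus and rest of the brain and to 0.077 for tissue in activated Tconv, and genes called moved from 872 to 5637, 2097 to 1682 and 2164 to 33, and for tissue in Tregs from 622 to 0. Libraries that share a number had median correlations of 0.00249, 0.0108, 0.00102 and -0.0129 in these fits, with 0 pairs over 0.1. In the libraries of these fits without the block, an alternative added after seeing the data, 1065, 1798, 1726 and 7 genes were called. There *Leprot* was -0.023 for cell type in the rest of the brain, against -0.23 with the block, and 0.076 for tissue in activated Tconv. Both signs thus turned without the block as well, and the cause was not tested. For diet and strain no paired analysis was possible because these came from different mice.

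In the pilot experiment, *Leprotl1* on the HFHS diet in Tregs was 6.32-fold by CPM. *Leprot* of *ob*/*ob* CD4 cells was 10-fold and 10.7-fold the WT floor with size factors of the pair and TMM. In CD25hi cells *Leprot* was 0.585 and *Leprotl1* 1.52 by CPM, where totals of 99925 and 5334511 and missing T-cell genes limit the comparison. Other alternatives kept direction and call, in 89 of the member counts, 83 of the *Leprot* and 91 of the *Leprotl1* differences. Depth limits *Lepr*: 3 counts are 0.078 to 1.74 CPM in hypothalamic Tregs. In the pilot experiment no replicates exist.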
